A study of Homo sapiens with 26 samples.

Results

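The genes described here are the replication-dependent histone genes of the HIST1, HIST2, HIST3 and HIST4 clusters in the human colon carcinoma line HCT116, followed through loss of CDK8, CDK19 or both kinases and through treatment with JQ1. Members were the protein-coding genes whose symbol begins HIST1H, HIST2H, HIST3H or HIST4H and whose mean reached 1 CPM (gene counts scaled to a common library total, after scaling for library composition) in at least 1 of 9 groups. Of 72 such genes in a table of 58039 genes, 17 were members, 59 had at least 1 count and 13 had none. The symbol HIST1H3D is carried by more than 1 gene identifier, with 45 counts and 0 counts, each counted here as a gene. By histone type the members were 1 of 6 H1 genes, 4 of 17 H2A genes, 7 of 18 H2B genes, 2 of 16 H3 genes and 3 of 15 H4 genes. By cluster they were 13 of 56 in HIST1, 2 of 12 in HIST2, 2 of 3 in HIST3 and 0 of 1 in HIST4. The members nearest the threshold were HIST2H2AC, HIST1H4E and HIST3H2BB, with highest group means of 1.01, 1.25 and 1.29 CPM. The genes nearest below it were HIST2H2BF, HIST1H2BE and HIST1H2AJ, at 0.911, 0.760 and 0.489 CPM. 5 members, HIST1H2BC, HIST1H2BJ, HIST3H2BB, HIST1H4E and HIST2H2AC, reached 1 CPM only in a group treated with JQ1, so the rule itself required them to be high there. All 17 passed the filter on low counts, along with those 3 genes just below the threshold.

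Replication-dependent histone genes encode the core histones H2A, H2B, H3 and H4 and the linker histone H1 that package newly made DNA, and they are transcribed mainly in S phase from clusters of many near-identical copies. Their messages are unusual in ending not in a poly(A) tail but in a short conserved stem-loop, which the stem-loop binding protein SLBP holds for cutting, export, translation and decay. Some copies are also known to be read past the stem-loop to a downstream poly(A) site, often in cells that have stopped dividing. JQ1 occupies the bromodomains of BET proteins and so releases them from acetylated histone tails. CDK8 and CDK19 are alternative kinase subunits of Mediator, a large coactivator of RNA polymerase II.

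RNA was sequenced from 26 libraries of HCT116 cells, an epithelial line from a colon carcinoma. The groups were control cells (3 libraries), control cells with JQ1 (3), a pair of CDK8 knockout sublines, CDK8KO-C1 and CDK8KO-C2 (3 each), a pair of CDK19 knockout sublines, CDK19KO-C1 and CDK19KO-C2 (3 each), a pair of sublines lacking both kinases, DKO-C1 and DKO-C2 (3 each), and DKO-C1 with JQ1 (2). The knockouts were made by CRISPR and C1 and C2 are the labels' own subline numbers, so a knockout is represented by at most 2 sublines, each compared with the same control libraries. JQ1 was given to the control cells and to DKO-C1 only. Neither its dose nor its duration is stated in the sources used here, and no vehicle is named for the groups without it. Whether the replicates were separate cultures is not stated either, so p-values measure the spread between libraries, which may be technical. The 3 columns assigned to DKO-C2 carry another clone number and were assigned by elimination. Of the 2 libraries of DKO-C1 with JQ1, 1 is numbered 3 in the count table while the sample titles are numbered 1 and 2, so it was matched to the group and not to a sample.

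Gene counts per library ran from 17700864 to 19093094, and mitochondrial genes took 4.55% to 8.62% of them. At this depth 3 counts, the floor used here, correspond to 0.156 to 0.172 CPM, and floors cover counting error only, while the intervals of log2 changes come from the standard errors of the fit. EPCAM, KRT8, KRT18 and CDH1, which mark epithelial cells, were at 39.0 CPM or more in every library, while 9 markers of immune, endothelial and fibroblast cells stayed at or below 1.57 CPM, LUM being at 0 in all 26. CDK8 was at 50.1 to 52.2 CPM in the control libraries, 43.6 to 48.3 in the CDK8 knockouts and 35.4 to 40.4 in the untreated double knockouts. CDK19 was at 24.4 to 29.9 CPM in control, 17.5 to 26.9 in the CDK19 knockouts and 31.7 to 41.3 in the untreated double knockouts, where it was called higher (log2 change 0.39 ± 0.06 SE, adjusted p = 1.32e-06; -0.51 with libraries scaled to spike-in RNA). Both target RNAs were therefore still present, and RNA level does not check the edits; groups are named by their labels. HEXIM1, a gene known to rise when BET proteins are displaced, rose with JQ1 in control by 1.24 ± 0.05 and in DKO-C1 by 1.19 ± 0.05 (log2 ± SE), and MYC fell by 0.86 and 0.28 on the log2 scale. The spike-in is named in the labels of the control and double knockout samples and not of the single knockouts, although all 26 libraries held ERCC counts (193685 to 807887). When libraries were scaled to those ERCC counts, the median log2 change of all genes moved by -0.37 for JQ1 in control, -0.27 for JQ1 in DKO-C1, -1.22 for the CDK8 knockouts, -1.65 for the CDK19 knockouts and -0.90 for the double knockouts. Changes below are therefore relative to the other genes of a library, and the spike-in result is given beside the counts and named genes whose direction or call turns under it. In bulk RNA, a different number of cells expressing these genes and a different amount of RNA per cell cannot be told apart.

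The stem-loop at the end of the histone message is the feature these genes share and the one by which their RNA is processed, so examples of each form are shown first. It was found in the GENCODE v29 transcripts (GRCh38) of 11 of the 17 members, 27 to 56 bases after the stop codon. Only 16-base stretches of a fixed pattern with a perfectly paired stem were accepted, so variant forms would be missed. The sequences run 5′ to 3′ on the coding strand with the 16 bases of the stem-loop in capitals and 5 bases on each side, and coordinates are those of the capitals.
HIST2H2BE (chr1:149886188-149886203, minus strand): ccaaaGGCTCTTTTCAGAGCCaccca
HIST1H2AC (chr6:26124669-26124684, plus strand): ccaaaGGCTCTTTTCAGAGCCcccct
HIST1H2BD (chr6:26158587-26158602, plus strand): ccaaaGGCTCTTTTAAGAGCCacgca
HIST3H2A (chr1:228457369-228457384, minus strand): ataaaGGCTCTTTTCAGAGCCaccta
HIST1H4I (chr6:27139654-27139669, plus strand): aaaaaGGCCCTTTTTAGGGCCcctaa
HIST1H4E (chr6:26205001-26205016, plus strand): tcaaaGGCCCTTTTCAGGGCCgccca
HIST1H3E (chr6:26225596-26225611, plus strand): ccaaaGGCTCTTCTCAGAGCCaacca

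5 forms occurred. The form shown for HIST2H2BE, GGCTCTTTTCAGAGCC, was shared by 6 members (HIST1H2AC, HIST3H2A, HIST2H2BE, HIST1H3H, HIST1H2BN and HIST3H2BB). That of HIST1H2BD was shared with HIST1H2BC, and HIST1H4I, HIST1H4E and HIST1H3E each had a form of its own. Among the 6 members with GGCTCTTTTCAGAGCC were HIST2H2BE, with the largest change with JQ1 in control, and HIST1H2BN, which was not called there. The part of the stem-loop form in the response was not tested.

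The gene models onto which reads were counted differed between members and the other histone genes. In 13 of 17 members the annotated transcripts ran more than 100 bases past the stop codon, against 17 of the other 55, and only 3 members (HIST1H1C, HIST1H2BK and HIST2H2AC) were annotated as coding sequence alone, against 32 of 55. The median exon length was 1237 bases in members and 411 in the others. Model length enters the choice of members, since a longer model can collect more counts, and its part in their selection was not tested. No stem-loop of the accepted pattern was found in the models of HIST1H1C, HIST1H2AG, HIST1H2BJ, HIST1H2BK, HIST1H4C and HIST2H2AC. The models of HIST1H1C, HIST1H2BK and HIST2H2AC stop at the stop codon and cannot contain one. Those of HIST1H2AG, HIST1H2BJ and HIST1H4C run 1827, 569 and 51 bases beyond it, where a variant form would have been missed. The sources used here do not say whether the libraries were made from poly(A) RNA or by removing ribosomal RNA. The levels therefore cannot be split into messages ending at the stem-loop and polyadenylated ones.

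Near-identical copies limit some members. Of the 50-base words of HIST1H2BK, 74.1% also occurred in other genes, most often in H2BFS, and 30.5% of those of HIST2H2AC did, most often in HIST2H2AA3. The other members shared 8.81% of their words or less. HIST1H2BN, with 5477 exonic bases, overlapped HIST1H2AL on the same strand and HIST1H2AK on the opposite one. The sources used here do not say how the authors' counting treated such reads and strands, so these 3 members are uncertain as to the copy their reads came from.

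Promoter windows of 300 bases, 250 before and 50 after the start of transcription, were taken from RefSeq (GRCh38.p14) and matched for 16 of the 17 members, all but HIST1H4C. The CCAAT box (CCAAT) was present on either strand in 15 of 16, against 34.6% of all 35116 windows. For each motif a member counted if any of its windows held it, whereas the share of all windows is per window. HIST1H2BD, HIST1H2BK and HIST1H3E had 2 windows each, which favours the members. The TATA box (TATAAA) was present in 10 of 16 (11.5% of all windows). ATTTGCAT, the octamer known from H2B promoters, was present in 7 of 16 (1.77% of all windows), namely HIST1H2AC, HIST1H2BK, HIST2H2BE, HIST1H2AG, HIST1H2BC, HIST1H2BJ and HIST2H2AC. Members in head-to-head pairs, described below, have starts 218 to 322 bases apart. Their windows can overlap, so 1 motif can count for both partners. Of the octamer genes, HIST1H2BC and HIST1H2AC, HIST1H2BJ and HIST1H2AG, and HIST2H2BE and HIST2H2AC are such pairs. The members' counts for the 3 motifs are therefore not independent. The first 250 bases of 3 windows are shown, for the H2B gene with the largest JQ1 change in control, for the H2A gene with the largest in DKO-C1, and for the only H1 member. Capitals mark the 3 motifs, including their reverse complements where the motif lies on the other strand.
HIST2H2BE (chr1:149886683-149886932, minus strand): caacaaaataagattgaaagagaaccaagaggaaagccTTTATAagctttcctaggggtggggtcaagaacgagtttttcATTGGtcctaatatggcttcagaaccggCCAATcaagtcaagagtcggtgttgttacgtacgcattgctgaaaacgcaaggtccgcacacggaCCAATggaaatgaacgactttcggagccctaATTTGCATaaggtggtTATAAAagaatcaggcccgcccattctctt
HIST1H2AC (chr6:26123922-26124171, plus strand): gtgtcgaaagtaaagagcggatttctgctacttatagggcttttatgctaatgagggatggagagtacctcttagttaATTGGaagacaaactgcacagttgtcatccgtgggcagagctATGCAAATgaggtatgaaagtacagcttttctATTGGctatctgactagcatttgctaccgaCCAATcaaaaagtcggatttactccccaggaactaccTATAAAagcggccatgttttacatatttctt
HIST1H1C (chr6:26056471-26056720, minus strand): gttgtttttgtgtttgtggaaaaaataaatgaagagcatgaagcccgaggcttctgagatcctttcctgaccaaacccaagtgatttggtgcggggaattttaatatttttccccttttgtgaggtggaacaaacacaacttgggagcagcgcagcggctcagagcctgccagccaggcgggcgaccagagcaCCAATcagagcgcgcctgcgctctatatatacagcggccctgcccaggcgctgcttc

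The HIST2H2BE window held 3 CCAAT boxes, 2 TATAAA matches and 1 octamer. That of HIST1H2AC held 3, 1 and 1, and that of HIST1H1C held 1 CCAAT box and neither other motif. All 3 genes rose with JQ1, and the part of these motifs in the rise was not tested.

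In control cells the 17 members summed to 35.7 ± 1.30 CPM (SD, n = 3), a small share of the library. HIST1H2BK (an H2B gene) led with 5.97, 7.67 and 8.18 CPM in the 3 control libraries, followed by HIST3H2A (H2A), HIST1H1C (the linker histone H1.2), HIST1H4I (H4), HIST1H2AC (H2A) and HIST1H4C (H4), with means of 4.85, 3.96, 3.83, 3.40 and 2.67 CPM. Ranges of neighbours in this order overlapped from HIST1H1C through HIST1H4I and HIST1H2AC to HIST1H4C, which spanned 3.47 to 4.38, 3.58 to 4.14, 2.85 to 4.14 and 2.24 to 3.25 CPM. These 6 genes made up 72.8% of the summed level. On a scale of CPM per kilobase of exon, HIST1H2BK stood at 19.1, HIST1H1C at 6.17, HIST1H4C at 6.14 and HIST3H2A at 5.42. The long models of HIST2H2BE, HIST1H2BN and HIST1H4E stood at 0.324, 0.199 and 0.192. They run 1801, 3575 and 1082 bases past the stop codon, whereas that of HIST1H2BK is coding sequence alone. This scale divides by the whole model, whether or not the messages extend over it, so genes with unlike models are not strictly comparable.

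JQ1 raised the summed level of the 17 members in control cells to 108 ± 3.27 CPM (n = 3), 3.02 times the control mean, and every treated library (105.3 to 111.5 CPM) lay above every untreated one (34.6 to 37.2 CPM). 14 of 17 members rose and 0 fell, where 27.0% of all 17198 genes tested rose and 29.1% fell. The median log2 change was 1.51 over the members and -0.02 over all genes. No member was lower at an unadjusted p under 0.05 in edgeR, and DESeq2 called 0 lower. All 17 estimates were above 0, except that with ERCC scaling HIST1H4C and HIST2H2AC were each at -0.24, and in 13 members the treated libraries lay wholly above the untreated ones. With ERCC scaling 13 members rose and 0 fell; the one no longer called was HIST1H3E (0.27, adjusted p = 0.464). The 5 members that reached 1 CPM only with JQ1 count among the 17, 4 of them among those that rose. Of the 11 histone genes with at least 1 CPM in control, which the treated groups did not help to choose, 9 rose, and their median log2 change was 0.98.

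**Figure D1:**
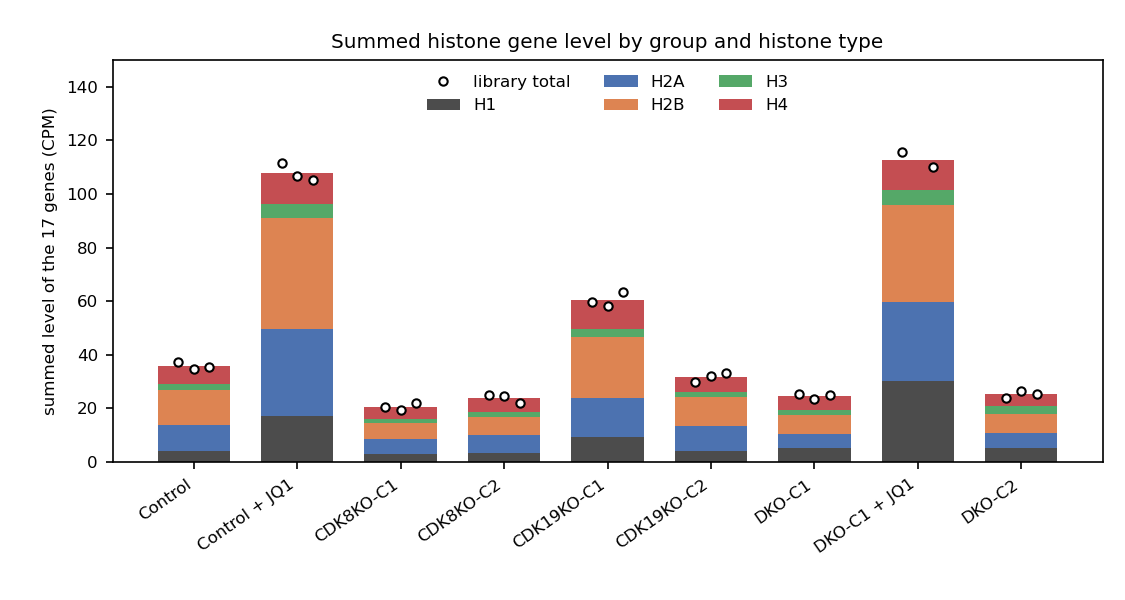
Summed level of the 17 histone genes (CPM, vertical axis) in each of the 9 groups, stacked by histone type as group means, with each library's total as a circle. The 5 libraries with JQ1 sit between 105.3 and 115.6 CPM, and the highest group without it is CDK19KO-C1 at 58.2 to 63.3 CPM.

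The rise was seen in every histone type but was uneven. The summed H1 level, which is HIST1H1C alone, was 4.37 times its control mean with JQ1, the summed H2A level 3.24 times, H2B 3.25 times, H3 2.25 times and H4 1.73 times. By type, 1 of 1 H1, 3 of 4 H2A, 6 of 7 H2B, 2 of 2 H3 and 2 of 3 H4 members rose, where 27.0% of all genes rose. By cluster, 11 of 13 members in HIST1, 1 of 2 in HIST2 and 2 of 2 in HIST3 rose. These counts include HIST1H2BC, HIST1H2BJ and HIST3H2BB among H2B and HIST1H4E among H4, which reached 1 CPM only with JQ1. The rule required them to be high there, so the split by type and cluster partly reflects the selection. The other 55 histone genes, each below the threshold, together went from 2.68 to 2.83 CPM in the control libraries to 5.28 to 6.54 CPM with JQ1.

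Among H2B genes, whose product pairs with H2A in the nucleosome, HIST2H2BE changed most. Its level was 0.996, 0.602 and 0.535 CPM in the control libraries and 7.38, 7.17 and 5.96 CPM with JQ1. The groups were far apart, and the log2 change was 3.25 ± 0.21 (SE), a 9.50-fold rise (adjusted p = 1.33e-15). HIST1H2BD, whose stem-loop form differs from that of HIST2H2BE, stood at 2.41, 2.63 and 2.35 CPM without JQ1 and at 15.7, 15.4 and 14.0 CPM with it. This was a rise of 2.61 ± 0.13 on the log2 scale (adjusted p = 1.01e-18), with no overlap. HIST1H2BK, the most abundant member in control, moved from 5.97, 7.67 and 8.18 CPM to 14.99, 13.3 and 13.4 CPM. Its log2 change of 0.93 ± 0.11 (adjusted p = 8.54e-09) was smaller, although again no libraries overlapped. The less abundant HIST1H2BC, HIST1H2BJ and HIST3H2BB rose by 1.96, 1.70 and 1.41. HIST1H2BN did not pass the test (0.57 ± 0.28, adjusted p = 0.0873).

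For H2A, HIST1H2AC stood at 4.14, 2.85 and 3.21 CPM in control and at 16.8, 15.6 and 16.9 CPM with JQ1. HIST1H2AG stood at 1.26, 0.712 and 1.12 CPM in control and at 5.32, 6.37 and 7.04 CPM with JQ1. In both genes all treated libraries were above all untreated ones, and the log2 changes were 2.27 ± 0.12 (adjusted p = 4.93e-18) and 2.59 ± 0.19 (adjusted p = 1.75e-14). HIST3H2A moved less, from 4.56, 4.82 and 5.18 CPM to 9.10, 8.87 and 8.63 CPM (0.87 ± 0.12, adjusted p = 1.30e-07). HIST2H2AC showed no detectable change: its control libraries held 0.734, 0.876 and 0.428 CPM and its treated libraries 0.744, 0.796 and 0.681 CPM, with a log2 change of 0.13 and an interval from -0.52 to 0.77.

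The linker histone gene HIST1H1C, which encodes a protein that binds the DNA between nucleosomes, rose from 4.03, 4.38 and 3.47 CPM to 17.4, 16.6 and 18.1 CPM. It became the most abundant member (log2 change 2.13 ± 0.11, adjusted p = 9.89e-19). Among the genes for H4 and H3, which form the central tetramer of the nucleosome, HIST1H4I moved from 4.14, 3.78 and 3.58 CPM to 7.72, 7.34 and 7.61 CPM (0.98 ± 0.13, adjusted p = 3.54e-08), and HIST1H3H from 1.26, 1.04 and 1.18 CPM to 3.72, 3.07 and 3.18 CPM (1.51 ± 0.20, adjusted p = 5.53e-08). Both separated without overlap. HIST1H4E rose by 2.11 from a control mean of 0.286 CPM, and HIST1H3E by 0.62 ± 0.26 (adjusted p = 0.0419) with overlapping libraries. HIST1H4C did not pass the test. It stood at 3.25, 2.52 and 2.24 CPM in control and at 4.23, 2.16 and 2.33 CPM with JQ1, a log2 change of 0.12 with an interval from -0.31 to 0.55, so a rise of the size seen in HIST1H4I lay outside its interval.

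**Figure D2:**
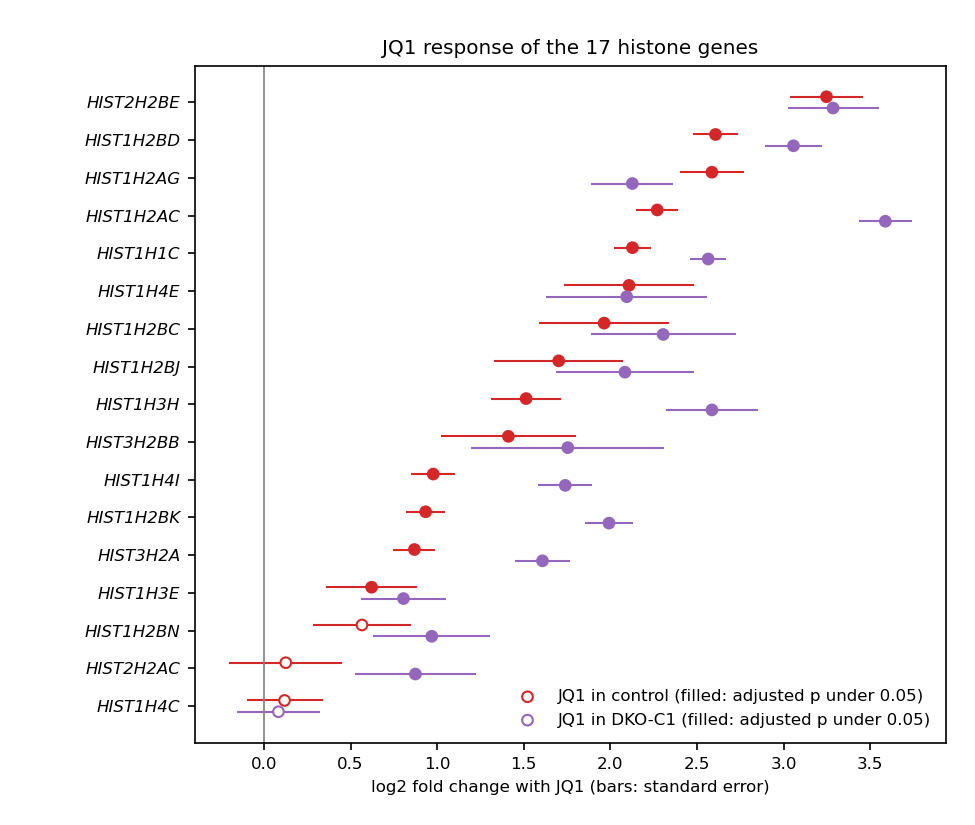
Log2 change with JQ1 (horizontal axis; bars are standard errors and filled points have an adjusted p under 0.05) of each of the 17 members in control cells and in DKO-C1. All estimates lie above 0 on this scale, HIST1H4C (0.12 and 0.08, negative in both with ERCC scaling) nearest to it, and HIST2H2BE (3.25) in control and HIST1H2AC (3.59) in DKO-C1 lie farthest from it.

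4 pairs of members lie head to head, an H2A gene and an H2B gene transcribed away from each other from starts 218 to 322 bases apart. HIST2H2BE and HIST2H2AC, with 322 bases between them on chromosome 1, had log2 changes with JQ1 in control of 3.25 and 0.13. HIST1H2BC and HIST1H2AC (218 bases) had 1.96 and 2.27, HIST1H2BJ and HIST1H2AG (291 bases) 1.70 and 2.59, and HIST3H2A and HIST3H2BB (233 bases) 0.87 and 1.41. In 3 of the 4 pairs both partners were called higher, where 27.0% of all genes rose. In each pair 1 partner reached 1 CPM only with JQ1, namely HIST2H2AC, HIST1H2BC, HIST1H2BJ and HIST3H2BB. The rule required these partners to be high there, so the count of pairs is not independent of JQ1. The difference within a pair was not tested, and HIST2H2AC shares 30.5% of its words with other copies.

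In DKO-C1 the summed level went from 24.6 ± 0.987 CPM (n = 3) to 112.8 ± 3.86 CPM with JQ1 (n = 2), a ratio of 4.58. 16 of 17 members rose and 0 fell, where 24.9% of all genes rose and 25.4% fell, and the median change was 2.08 over the members and -0.00 over all genes. In those 16 members both treated libraries lay above all 3 untreated ones. With ERCC scaling 13 rose; HIST1H3E (0.52, adjusted p = 0.166), HIST1H2BN (0.70, adjusted p = 0.115) and HIST2H2AC (0.60, adjusted p = 0.274) were no longer called. HIST1H2BC, HIST1H2BJ, HIST3H2BB, HIST1H4E and HIST2H2AC, which reached 1 CPM only with JQ1, are among the 16. HIST2H2AC reached it in JQ1-treated DKO-C1 alone (1.01 CPM). The count, the median and the sums by type therefore partly reflect the selection. Of the 11 histone genes with at least 1 CPM in control, 10 rose, with a median change of 1.99. By type, the summed H1 level was 5.92 times that of untreated DKO-C1, H2A 5.66 times, H2B 5.04 times, H3 2.88 times and H4 2.18 times.

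HIST1H2AC had the largest change in DKO-C1. It stood at 1.38, 1.30 and 1.72 CPM without JQ1 and at 19.0 and 16.4 CPM with it, a rise of 3.59 ± 0.15 on the log2 scale, or 12.0-fold (adjusted p = 6.23e-21). HIST1H1C stood at 5.24, 4.74 and 5.26 CPM without JQ1 and at 29.5 and 30.7 CPM with it, the highest level of any member in any library (2.56 ± 0.10, adjusted p = 1.62e-21). Both groups of libraries were well apart for these genes. HIST2H2BE went from 0.317, 0.521 and 0.644 CPM to 5.53 and 4.22 CPM (3.29 ± 0.26, adjusted p = 3.49e-13), and HIST1H2BD from 1.59, 0.938 and 1.56 CPM to 10.8 and 11.9 CPM (3.06 ± 0.17, adjusted p = 1.07e-17). HIST1H2BK went from 3.81, 3.39 and 3.76 CPM to 15.4 and 13.7 CPM (1.99 ± 0.14, adjusted p = 9.93e-15). All 3 H2B genes thus rose without overlap. HIST1H4I changed by 1.74 ± 0.16 and HIST3H2A by 1.61 ± 0.16, and HIST1H3H by 2.59 ± 0.26, each called. HIST1H4C again stood apart, at 2.96, 3.07 and 2.20 CPM without JQ1 and 3.39 and 2.44 CPM with it (0.08, interval -0.39 to 0.56, adjusted p = 0.807).

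**Figure D3:**
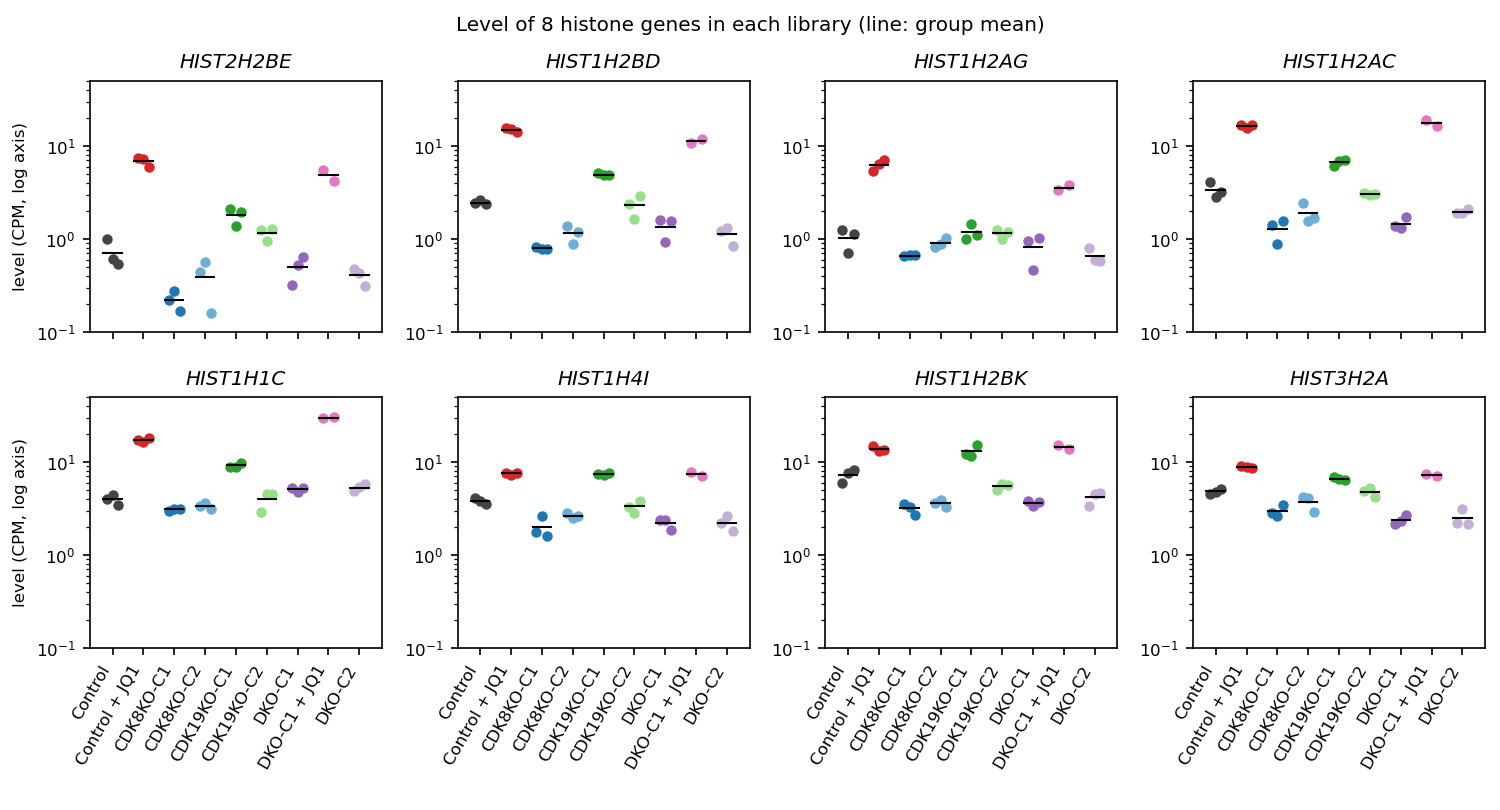
Level (CPM, log axis) of 8 histone genes in each library (points), by group, with the group mean as a line. In HIST1H2AC the 5 libraries with JQ1 sit between 15.6 and 19.0 CPM, and the DKO-C1 libraries without it between 1.30 and 1.72 CPM.

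The difference between the responses was tested as an interaction. 4 of 17 members responded more in DKO-C1 than in control and 0 responded less, where 3.90% of all genes had a higher and 4.70% a lower response. HIST1H2AC differed by 1.32 ± 0.22 (adjusted p = 4.11e-05), HIST1H2BK by 1.06 ± 0.18 (adjusted p = 8.82e-05), HIST1H4I by 0.76 ± 0.21 (adjusted p = 0.0132) and HIST3H2A by 0.74 ± 0.20 (adjusted p = 0.0141). HIST1H3H differed by 1.07 ± 0.36 and did not pass (adjusted p = 0.0510). With ERCC scaling HIST1H2AC (1.42) and HIST1H2BK (1.16) were still called and HIST1H4I and HIST3H2A were not. Without replicate 1 of DKO-C1 with JQ1, which leaves 1 library in that group, assumed to vary like the other groups, 2 members were called, and the adjusted p was 0.0892 for HIST1H4I and 0.0724 for HIST3H2A. Without replicate 3 of untreated DKO-C1, that of HIST1H4I was 0.0578. The comparison rests on untreated levels as well as on treated ones. In the 4 called members the means of control and DKO-C1 lay further apart without JQ1 than with it. HIST1H2AC started from a mean of 3.40 CPM in control and 1.47 CPM in DKO-C1 and ended at 16.5 and 17.7 CPM. HIST1H2BK started at 7.27 and 3.65 CPM and ended at 13.9 and 14.5 CPM. For HIST1H4I the means were 3.83 and 2.22 CPM without JQ1 and 7.56 and 7.43 CPM with it. Those of HIST3H2A were 4.85 and 2.40 CPM without JQ1 and 8.87 and 7.32 CPM with it.

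Compared directly under JQ1, DKO-C1 and control cells differed in 5 of 17 members, 2 higher and 3 lower in DKO-C1 (24.3% and 22.4% of all genes). HIST1H1C was higher by 0.79 ± 0.09 (adjusted p = 9.94e-10) and HIST1H3E by 0.66 ± 0.24 (adjusted p = 0.0221). HIST1H2AG was lower, at 3.34 and 3.79 CPM against 5.32 to 7.04 CPM (-0.81 ± 0.16, adjusted p = 9.35e-05), and so were HIST2H2BE (-0.49 ± 0.16) and HIST1H2BD (-0.41 ± 0.11). With ERCC scaling, in which the median of all genes moved by -0.91, 0 members were higher and 13 lower, and HIST1H1C and HIST1H3E had negative estimates (-0.12 and -0.28). Without the library of JQ1-treated DKO-C1 numbered 3 in the count table, HIST1H3E (adjusted p = 0.420) and HIST2H2BE (adjusted p = 0.251) were not called. HIST1H3E was also not called without replicate 3 of JQ1-treated control, HIST2H2BE not without replicate 1 of JQ1-treated control, and HIST1H2BD not without replicate 1 of JQ1-treated DKO-C1. HIST1H2AC, HIST1H2BK and HIST1H4I did not pass this test, with intervals of -0.10 to 0.31, -0.16 to 0.29 and -0.27 to 0.23, and their summed H2A, H2B and H4 classes were at 0.915, 0.873 and 0.962 of the JQ1-treated control means.

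Without JQ1, many of the histone genes were lower in the CDK8 knockouts than in control. The summed level was 20.6 ± 1.33 CPM in CDK8KO-C1 and 23.8 ± 1.59 CPM in CDK8KO-C2 (n = 3 each), 0.578 and 0.667 of control, with all 6 libraries (19.3 to 24.98 CPM) below all 3 control ones. In the mean of both sublines 8 of 17 members fell and 0 rose, where 21.0% of all genes fell and 19.5% rose, and the median change was -0.57 against -0.02. No member was higher at an unadjusted p under 0.05 in edgeR, and DESeq2 called 0 higher and 7 lower. HIST1H2BK was at 3.56, 3.32 and 2.72 CPM in C1 and at 3.64, 3.94 and 3.33 CPM in C2, below every control library (5.97 to 8.18 CPM), and changed by -1.09 ± 0.12 (adjusted p = 4.51e-09). The other falls were of HIST1H2BD (-1.37), HIST2H2BE (-1.26), HIST1H2BJ (-1.20), HIST1H2AC (-1.13), HIST1H3H (-0.77), HIST1H4I (-0.74) and HIST3H2A (-0.54). 4 of these 8 encode H2B, and the summed H2B level was at 0.448 and 0.522 of control in C1 and C2. HIST1H2BJ rested on 1 to 4 counts per knockout library, below or near the floor, and HIST2H2BE on 3 to 11. The control libraries held 4, 4 and 13 counts of HIST1H2BJ and 19, 11 and 10 of HIST2H2BE. Tested alone, CDK8KO-C1 had 8 members lower and 0 higher (19.4% and 19.8% of all genes) and CDK8KO-C2 7 lower and 0 higher (17.2% and 16.8%). Leaving out 1 library at a time gave 6 to 9 lower in C1 and 5 to 7 in C2. With ERCC scaling, where the median of all genes moved by -1.22, 17 members were lower in the mean of both sublines. In each subline alone 16 were then lower and 0 higher. The sublines differed in 1 member, HIST2H2AC, which was higher in C1 by 1.15 ± 0.40 (adjusted p = 0.0314; 11.5% of all genes were higher and 9.63% lower), on 3 to 17 counts per library. It was called without replicate 1 of C1 or replicate 2 of C2 (adjusted p = 0.0148 and 0.0144) and not without any 1 of the other 4 libraries (0.0626 to 0.219), nor with ERCC scaling (1.22, adjusted p = 0.107).

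**Figure D4:**
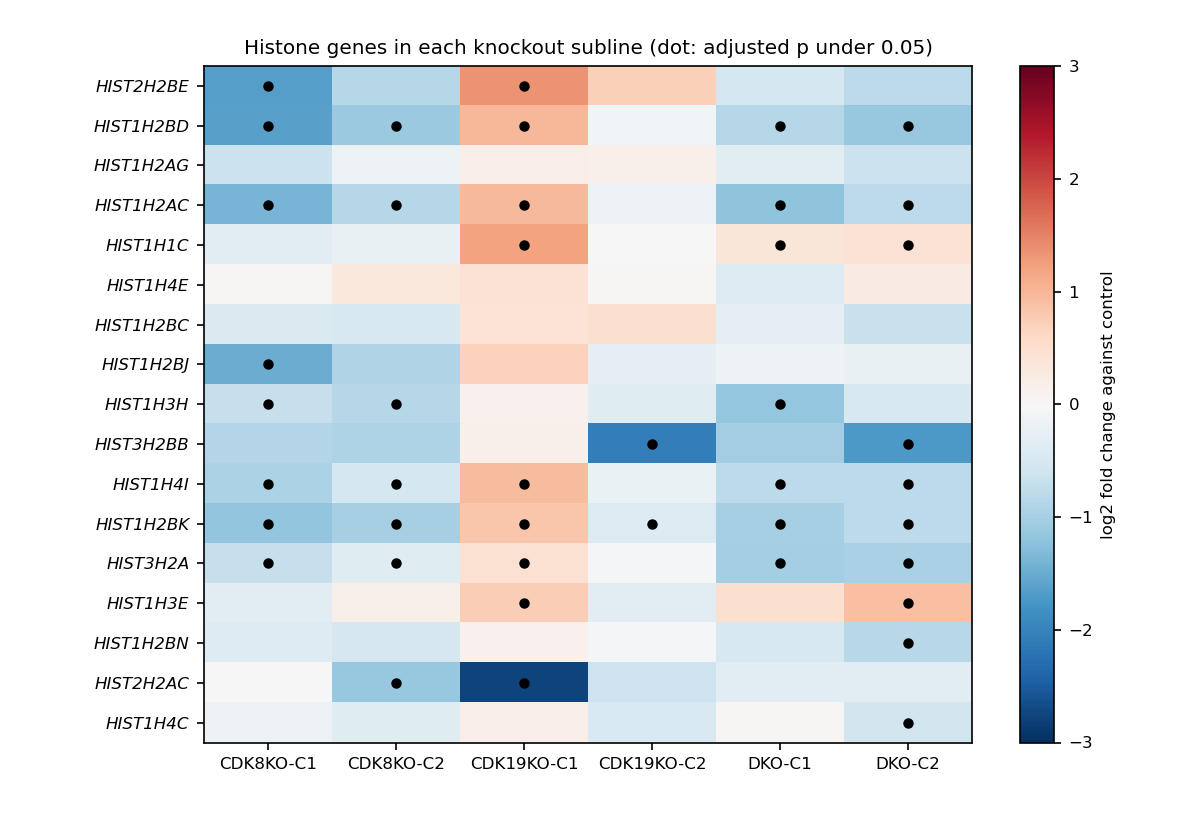
Log2 change against control, as color, of each member (rows) in the C1 and C2 sublines of each knockout (columns); red is higher, blue is lower and a dot marks an adjusted p under 0.05. 8 members are called lower in CDK8KO-C1 and 7 in CDK8KO-C2, whereas 8 are called higher in CDK19KO-C1 and 0 in CDK19KO-C2; HIST1H1C is at 1.22 and -0.00 in the CDK19KO sublines, and the rises in CDK19KO-C1 are negative with ERCC scaling.

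Loss of CDK19 gave no common direction in its sublines. In their mean 5 of 17 members rose and 1 fell (21.0% and 22.0% of all genes), HIST2H2BE by 1.02 ± 0.26, HIST1H1C by 0.61 ± 0.11, HIST1H2BD by 0.45 ± 0.15, HIST1H2AC by 0.40 ± 0.13 and HIST1H4I by 0.38 ± 0.12, with HIST2H2AC lower (-1.70 ± 0.38). No member had the knockout libraries wholly on one side of control. Without replicate 3 of control 3 members rose, and without replicate 2 of control 2 fell. Under ERCC scaling, where the median of all genes moved by -1.65, the rises were not kept: 0 members were higher and all 17 lower.

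The CDK19 sublines differed from each other. The summed level was 60.4 ± 2.61 CPM in CDK19KO-C1, above all control libraries at 1.69 times their mean, and 31.7 ± 1.74 CPM in CDK19KO-C2, below all of them at 0.886. In C1, 8 members rose and 1 fell (22.1% and 24.0% of all genes), and in C2, 0 rose and 2 fell (21.8% and 20.6%). The C2 count was not stable: without replicate 2 of C2 1 rose and 3 fell, and without any other 1 of the 6 libraries 1 fell, with HIST2H2BE higher also without replicate 1 of control. Between sublines, 10 members were higher and 1 lower in C1 (23.8% and 24.2%). HIST1H1C was at 8.95, 8.91 and 9.79 CPM in C1 and at 2.88, 4.49 and 4.53 CPM in C2, against 3.47 to 4.38 CPM in control. HIST1H2BK was at 12.3, 11.6 and 15.2 CPM in C1 and at 5.05, 5.83 and 5.61 CPM in C2, against 5.97 to 8.18 CPM in control. For both genes C1 lay above control without overlap; in C2 HIST1H1C overlapped it and HIST1H2BK lay below it. The difference between sublines was 1.22 ± 0.12 for HIST1H1C (adjusted p = 8.50e-11) and 1.24 ± 0.12 for HIST1H2BK (adjusted p = 6.91e-11). Relative to ERCC counts 7 members were still higher and 1 lower in C1 than in C2, although against control every one of the 17 estimates in C1 was then negative. HIST2H2AC moved the other way, with 1, 2 and 2 counts in the C1 libraries against 8, 9 and 7 in C2 and 14, 16 and 8 in control. Its log2 change in C1 was -2.79 with an interval from -3.82 to -1.75.

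Loss of both kinases gave summed levels of 24.6 ± 0.987 CPM in DKO-C1 and 25.2 ± 1.21 CPM in DKO-C2 (n = 3 each), 0.690 and 0.706 of control, again below all control libraries. In the mean of the sublines 8 of 17 members fell and 2 rose (32.1% and 29.5% of all genes), and the median change was -0.66 against -0.02. HIST1H2BK stood at 3.81, 3.39 and 3.76 CPM in C1 and at 3.36, 4.52 and 4.70 CPM in C2, below the 3 control libraries (-0.89 ± 0.12, adjusted p = 3.89e-08). HIST3H2A (-0.99 ± 0.13), HIST1H2BD (-0.99 ± 0.18), HIST1H2AC (-1.0 ± 0.16), HIST1H4I (-0.79 ± 0.14) and HIST1H3H (-0.82 ± 0.24) also fell without overlap. HIST3H2BB (-1.38) and HIST1H2BN (-0.66) fell with overlapping libraries, the first on 1 to 5 counts per double knockout library. HIST3H2BB had 19, 1 and 7 counts in the control libraries. HIST1H1C rose instead. It stood at 5.24, 4.74 and 5.26 CPM in C1 and at 4.90, 5.33 and 5.74 CPM in C2, above all control libraries (3.47 to 4.38 CPM), with a change of 0.39 ± 0.11 (adjusted p = 0.00328) that turned to -0.51 (adjusted p = 0.00432) with ERCC scaling. HIST1H3E rose as well, by 0.70 ± 0.23 (adjusted p = 0.00729), and had an estimate of -0.20 with ERCC scaling. Without replicate 2 of control 1 member rose.

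The double knockout sublines did not differ detectably in these genes. DKO-C1 alone had 1 member higher and 6 lower (27.0% and 28.9% of all genes) and DKO-C2 alone 2 higher and 8 lower (28.4% and 30.5%). HIST1H1C was not called in DKO-C1 without replicate 3 of control or replicate 1 or 3 of DKO-C1 (adjusted p = 0.0577 to 0.118), and DKO-C2 had 5 lower without replicate 1 of control. With ERCC scaling neither subline had a member higher, and 16 were lower in C1 and 13 in C2. Between DKO-C1 and DKO-C2, edgeR called 0 members in either direction, where 3.67% of all genes were higher and 5.75% lower in C1; at an unadjusted p under 0.05, 1 member was higher (HIST1H4C) and 1 lower (HIST1H3H). Since JQ1 was given to DKO-C1 only, the response of DKO-C2 is not known. The knockout comparisons share the 3 control libraries, so a control library that is high or low moves all of them together. HIST1H2AC, HIST1H2BD, HIST1H2BK, HIST1H4I, HIST1H3H and HIST3H2A fell in both CDK8KO and DKO, with changes of -1.13 and -1.0, -1.37 and -0.99, -1.09 and -0.89, -0.74 and -0.79, -0.77 and -0.82, and -0.54 and -0.99.

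Of 26 tested regulators of histone transcription, processing and decay, 6 rose and 7 fell with JQ1 in control, and 5 rose and 7 fell in DKO-C1. These shares are near those of all genes (27.0% and 29.1% in control, 24.9% and 25.4% in DKO-C1). SLBP, which binds the stem-loop, changed by 0.12 ± 0.04 in control (adjusted p = 0.0205), or -0.25 with ERCC scaling (adjusted p = 0.158), and NPAT, the coactivator of histone gene transcription, by -0.05 ± 0.08 (adjusted p = 0.578), or -0.42 with ERCC scaling (adjusted p = 0.0161). The largest called changes in control were of LSM11 (-0.88), a subunit of the U7 snRNP that directs cutting after the stem-loop, of the noncanonical poly(A) polymerase PAPD5 (0.56, and 0.19 and not called with ERCC scaling), and of MIIP (-0.51), a gene whose place in this list is uncertain. With ERCC scaling 0 of the 26 rose and 16 fell in control, and 0 rose and 6 fell in DKO-C1.

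Of 38 tested S-phase genes, which include replication factors and E2F family members, 7 rose and 23 fell with JQ1 in control (27.0% and 29.1% of all genes), and 5 rose and 20 fell in DKO-C1 (24.9% and 25.4%). E2F2 fell by 1.26 on the log2 scale, E2F8 by 1.01 and POLE2, a subunit of DNA polymerase epsilon, by 0.80 in control. Under JQ1 most of the 17 histone genes thus rose while most S-phase genes fell, and with ERCC scaling 0 S-phase genes rose while 29 and 20 fell. The part of cell cycle distribution in the histone levels was not tested. In the knockouts, 16 of 38 S-phase genes were higher and 5 lower in CDK8KO (19.5% and 21.0% of all genes), 12 and 9 in CDK19KO (21.0% and 22.0%) and 11 and 18 in DKO (29.5% and 32.1%). With ERCC scaling 0 were higher and all 38 lower in each of the 3 comparisons.

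Genes listed as replication-independent histones, whose messages are mostly polyadenylated and not confined to S phase, also changed with JQ1. Whether this description holds for each listed gene, H2AFX among them, was not checked. Of 12 tested, 8 rose and 2 fell in control (27.0% and 29.1% of all genes). In DKO-C1 7 rose and 3 fell (24.9% and 25.4%). H1F0, the linker histone H1.0 of resting and differentiated cells, rose by 1.77 ± 0.05 in control and by 2.23 ± 0.06 in DKO-C1, and H2AFX by 1.09 ± 0.08 and 1.11 ± 0.09. H2AFY2, a macroH2A gene, fell by 1.12 and 0.98 on the log2 scale. With ERCC scaling 4 rose and 3 fell in control, and 5 rose and 3 fell in DKO-C1, H1F0 (1.41) and H2AFX (0.73) among those that rose in control. H1F0 was lower in each knockout, with log2 changes of -1.17 (CDK8KO), -1.18 (CDK19KO) and -1.05 (DKO), whereas HIST1H1C did not pass the test in CDK8KO and was higher in the means of CDK19KO and DKO except under ERCC scaling.

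Of 24 tested histone chaperones, which carry newly made histones to DNA, 8 rose and 6 fell with JQ1 in control, near the 27.0% and 29.1% of all genes, and 10 rose and 6 fell in DKO-C1 (24.9% and 25.4%). ANP32E, a chaperone of H2A.Z, fell by 0.75 on the log2 scale, MMS22L by 0.66 and SSRP1, a FACT subunit, by 0.50. With ERCC scaling 0 of the 24 rose and 10 fell in control, and 0 rose and 6 fell in DKO-C1. Among 12 genes of BET proteins and P-TEFb, the kinase complex that releases paused polymerase, 7 rose and 0 fell in each JQ1 comparison (27.0% and 24.9% of all genes rose), among them HEXIM1 (1.24 and 1.19), ELL2 (0.93 and 0.65) and BRD2 (0.71 and 0.87). With ERCC scaling 2 rose and 3 fell in control, and 2 rose and 0 fell in DKO-C1; BRD2 was then not called in control (0.34, adjusted p = 0.0511) nor ELL2 in DKO-C1 (0.38, adjusted p = 0.0683).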

How the data were processed

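The deposited counts are unnormalised read numbers for each gene and for 92 ERCC spike-ins. According to the submitters' processing notes, alignment was to hg38 with STAR 2.5.2, and featureCounts (Subread 1.6.3) assigned reads to genes. Reads were paired, per the labels' protocols. Of 26 columns, 22 matched 1 sample by name and 4 a group only. edgeR 4.0.16 (R 4.3.3) fitted all 26 libraries in 9 groups by quasi-likelihood, with TMM factors (0.956 to 1.02) and filterByExpr (minimum count 10, minimum total 15), leaving 17198 genes. Calls are two-sided at a Benjamini-Hochberg adjusted p under 0.05 over all genes tested. Knockouts are means of both sublines, and intervals are 95%. The fit was tested on simulated data. DESeq2 1.42.0 was an alternative. Chi-square per degree of freedom was 1.41 to 13.2 over 25 replicate pairs, so none was closer than counting alone. Genes to be named at length were, per comparison, called members of at least 5 CPM with separated libraries, plus the 6 highest in control, those near the threshold and the 3 largest list changes; the remaining members are given for completeness. The members and gene lists were chosen with earlier results of these data known.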

Additional observations from a re-analysis of the deposited data

Results flagged for a closer look

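4 members responded differently to JQ1 in the 2 backgrounds by a test of the difference, with log2 differences of 1.32 for HIST1H2AC, 1.06 for HIST1H2BK, 0.76 for HIST1H4I and 0.74 for HIST3H2A, each larger in DKO-C1 than in control. In each of them the means of control and DKO-C1 lay further apart without JQ1 than with it.

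Sublines of 1 knockout differed from each other in 12 results. CDK8KO-C1 exceeded CDK8KO-C2 in HIST2H2AC by 1.15, a call lost with ERCC factors (1.22, adjusted p = 0.107). CDK19KO-C1 exceeded CDK19KO-C2 in 10 members, by 1.22 in HIST1H1C, 1.14 in HIST1H2AC, 1.09 in HIST1H2BD, 1.24 in HIST1H2BK, 0.48 in HIST3H2A, 1.16 in HIST1H4I, 0.63 in HIST2H2BE, 0.66 in HIST1H4C, 1.08 in HIST1H3E and 2.22 in HIST3H2BB. It was below CDK19KO-C2 in HIST2H2AC (-2.16). With ERCC factors 7 of the 10 were still called higher, and HIST3H2A, HIST2H2BE and HIST1H4C were not. Leaving out 1 library at a time gave 8 to 10 higher and 1 lower. MYC, which is not a histone gene, was at 748 ± 31.3 CPM in CDK19KO-C1 and 326 ± 6.84 in CDK19KO-C2 (SD, n = 3 each), against 499 ± 70.1 in control; its part in the histone levels was not tested.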

How the results depend on the processing

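With ERCC factors, 2 members responded more to JQ1 in DKO-C1 than in control, 17 were lower in CDK8KO, 0 higher and 17 lower in CDK19KO, and 0 higher and 15 lower in DKO, where HIST1H1C turned to -0.51. Among genes with at least 1 CPM in control, a choice made after seeing the data, 9 rose with JQ1 in control and 10 in DKO-C1, and 0 were lower in CDK19KO, as among those with at least 1 CPM in the mean of the group means. CDK19KO had 8 higher in C1 alone, and 0 higher and 2 lower in C2 alone. With only the libraries compared, where 15 members were tested, 0 were lower in CDK19KO. DKO had 1 member higher in C1 alone. Leaving out 1 library at a time gave 13 to 14 higher with JQ1 in control, 13 to 16 in DKO-C1, 2 to 5 for the difference, 7 to 9 lower in CDK8KO, 3 to 5 higher and 1 to 2 lower in CDK19KO, and 1 to 2 higher and 6 to 9 lower in DKO. The cause of these shifts was not tested.

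Replicate numbers did not pair the libraries: deviations of same-numbered libraries correlated from -0.17 to 0.17 (63 pairs) and of others from -0.19 to 0.18 (126 pairs). With a replicate block on the 22 libraries matched to a sample, where DKO is C1 only and JQ1-treated DKO-C1 is 1 library, assumed to vary like the other groups, 14 members rose with JQ1 in control and 12 in DKO-C1, 5 differed, 8 were lower in CDK8KO, 5 were higher and 1 lower in CDK19KO, and 1 was higher and 6 lower in DKO. The same libraries without the block term, added after seeing the data, gave 13 higher with JQ1 in DKO-C1, 5 that differed and 1 higher in DKO. Counts of a few reads per library limit HIST1H2BJ, HIST3H2BB, HIST1H4E, HIST2H2AC and HIST1H2BC, and also HIST2H2BE in the CDK8 and double knockouts without JQ1.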
